A study of Mus musculus with 2 samples.

Results

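The nuclear genes for the mitochondrial respiratory chain and ATP synthase were followed in G1E cells. They were taken as the protein-coding genes whose symbol begins with Nduf (complex I), Uqcr (complex III), Cox4 to Cox8 (complex IV) or Atp5 (ATP synthase). This gave 89 of the 21474 protein-coding genes in the gene tables: 46 named for complex I, 8 for complex III, 18 for complex IV and 17 for ATP synthase. They lie on 19 chromosomes, with at most 9 on a single one, chromosome 7. The symbol stem also takes in 8 assembly factors of complex I, which help to build the complex but are not part of it.

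The data are poly(A) RNA sequencing of G1E, an immortalized mouse line that the labels describe as a Gata1- erythroid progenitor, that is, a red cell precursor lacking the transcription factor GATA1. The labels give a male postnatal source aged 0 day. There was 1 group of 2 libraries, labelled biological replicates 1 and 2 of the same biosample, with no second genotype, treatment or time. No label ties either library to a culture of its own, and the differences between them may be purely technical.

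The respiratory chain passes electrons from NADH (complex I) and succinate (complex II) through ubiquinone, complex III and cytochrome c to oxygen at complex IV, and pumps protons out of the mitochondrial matrix on the way. ATP synthase lets the protons return and uses their flow to make ATP. Most subunits are encoded in the nucleus and imported, while a small catalytic and membrane set is encoded in mitochondrial DNA. Red cell precursors need mitochondria for haem synthesis and lose them as they mature.

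Replicate 1 held 31633573 expected counts (estimated reads) on named genes and replicate 2 held 56978193. Levels below are in TPM, counts over effective transcript length scaled to a fixed total per library; protein-coding genes took 84.4% of that total in replicate 1 and 75.1% in replicate 2, which lowers the TPM of replicate 2 by comparison. Where a pair of values is given below, the first is replicate 1 and the second replicate 2. Gata1 itself was read at 88.2 and 61.4 TPM, with 3748 and 5037 counts; where the mutation lies in the gene is not given in the labels, so these reads check nothing about it. The cell type was checked against marker lists. All 10 erythroid progenitor markers stood at 1 TPM or more in both libraries, whereas 0 of 10 heart and skeletal muscle, 0 of 7 testis germ cell, 0 of 6 fibroblast, 0 of 5 pluripotent cell and 0 of 3 brown fat markers did. Of 5 macrophage markers, 1 did (Cd68, at 11.8 and 5.76 TPM).

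Sequences are shown first for members with near-identical copies elsewhere in the genome on which counts were also listed. These copies are processed pseudogenes, which arise when a spliced messenger RNA is copied back into the genome. The coding sequence of Ndufb4 (chr16:37647170-37654453, minus strand, mm10) is 390 nt long, and the pseudogene Ndufb4c (chr15:73809507-73809896, minus strand) repeats all 390 nt with 0 differences. Ndufa12 (chr10:94198720-94221443, plus strand) matches the pseudogene Gm15920 (chr5:130188395-130188796, plus strand) over 402 nt with 2 differences. The windows below hold 90 coding nt each, 5′ to 3′, from the GENCODE M21 transcripts; they begin at coding position 31 in Ndufb4 and 79 in Ndufa12, counted from the first base of the start codon, and at position 31 of the pseudogene transcript. The capital marks the base that differs within the Ndufa12 window, and the Ndufb4 window has none.
Ndufb4 and Ndufb4c: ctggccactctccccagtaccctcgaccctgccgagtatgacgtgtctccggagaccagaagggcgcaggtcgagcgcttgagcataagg
Ndufa12: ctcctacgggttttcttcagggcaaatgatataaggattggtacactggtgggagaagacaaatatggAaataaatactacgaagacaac
Gm15920: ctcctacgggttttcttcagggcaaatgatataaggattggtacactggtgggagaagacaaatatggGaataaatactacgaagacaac

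The 3 genes for subunit c, the proton-carrying ring of ATP synthase, show the opposite case. Atp5g1 (chr11:96068852-96075670), Atp5g2 (chr15:102662864-102672352) and Atp5g3 (chr2:73908447-73911326), all on the minus strand, encode precursors of 136, 146 and 141 residues whose last 78 residues were the same in a translation of the 3 coding sequences. The last 90 coding nt before the stop codon differ among the genes at 24 positions, in capitals, and still code for the same residues.
Atp5g1: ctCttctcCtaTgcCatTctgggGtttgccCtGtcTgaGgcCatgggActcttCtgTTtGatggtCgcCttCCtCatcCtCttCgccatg
Atp5g2: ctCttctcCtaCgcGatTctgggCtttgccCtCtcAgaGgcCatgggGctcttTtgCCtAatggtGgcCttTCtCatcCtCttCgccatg
Atp5g3: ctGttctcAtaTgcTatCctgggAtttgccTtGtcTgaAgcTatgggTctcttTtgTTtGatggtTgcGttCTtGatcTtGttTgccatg
In the 252 nt over which Atp5g1 and Atp5g2 align best, the longest identical run was 21 nt, shorter than the 36 nt reads implied for replicate 1. Reads can thus tell the 3 genes apart in this stretch, but not Atp5g2 from its own pseudogene Gm10175 (chr7:23946646-23947290, minus strand), which repeats the 441 coding nt of Atp5g2 with 0 differences. From coding position 31, both hold the following 90 nt.
Atp5g2 and Gm10175: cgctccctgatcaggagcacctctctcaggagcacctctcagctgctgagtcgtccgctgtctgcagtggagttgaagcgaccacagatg

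Nearly all members were transcribed in both libraries. A level of 1 TPM or more in both was reached by 84 of 89 members (94.4%), beside 42.5% of all protein-coding genes. The median member level was 129 TPM by the mean of the libraries (108 and 152 TPM in each); the median of all protein-coding genes at 1 TPM or more was 23.5 TPM. Of the 84 expressed members, 46 (54.8%) exceeded 100 TPM in both libraries, beside 11.4% of expressed protein-coding genes. Together the members held 2.47% of protein-coding TPM in replicate 1 and 2.98% in replicate 2. Their transcripts were short, with a median length of 662 nt among the expressed members against 2205 nt among expressed protein-coding genes, and library ratios below are read with that in mind.

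**Figure D1:**
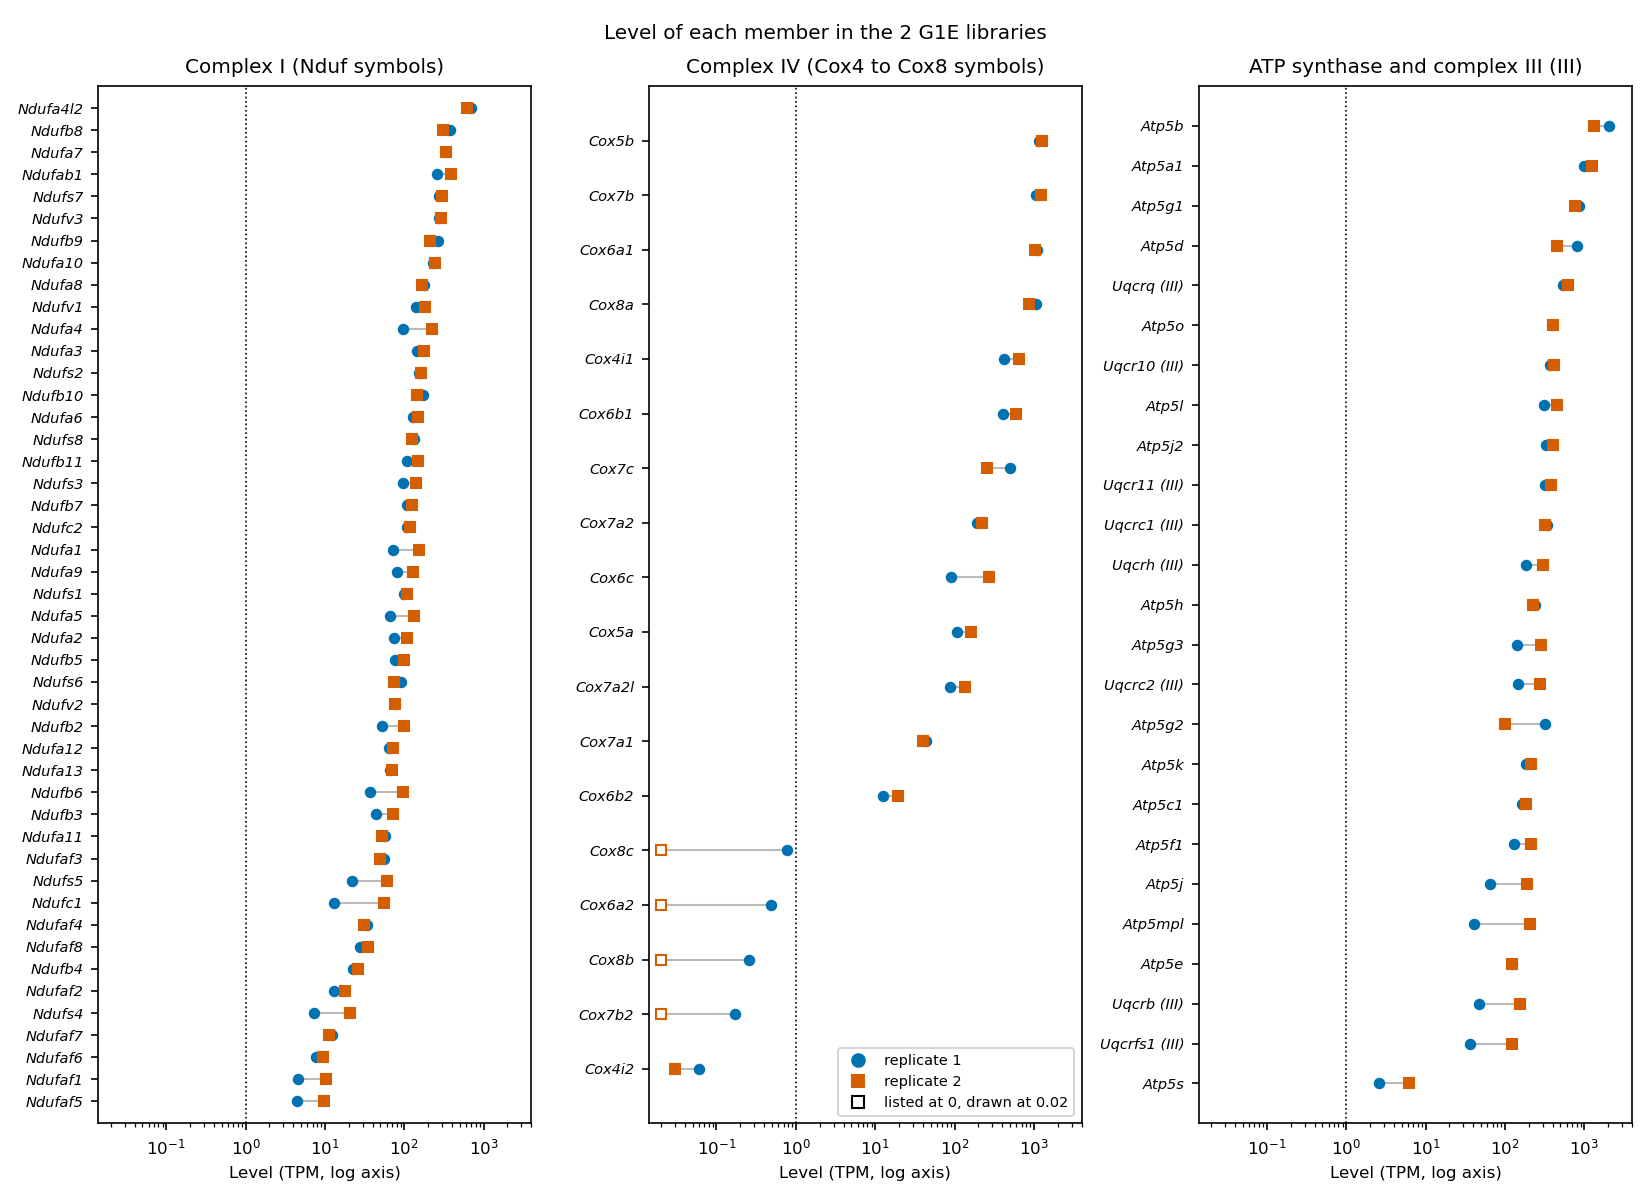
Level of every member in TPM on a log axis, 1 row per gene, circles for replicate 1 and squares for replicate 2, joined by a line; the dotted line marks 1 TPM and open symbols are members listed at 0. Of 89 members, 5 complex IV isoforms lie left of 1 TPM, and the complex I assembly factors sit at the low end of their panel.

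By complex, the median level was 286 TPM for complex III (253 and 310.5 TPM) and 214 TPM for ATP synthase (240.1 and 228 TPM). It was 158 TPM for complex IV (99.1 and 189 TPM), where the 5 silent isoforms pull it down, and 101 TPM for the genes named for complex I (79.4 and 113 TPM). The order was the same in both libraries, but it turns with the silent isoforms: over the 13 expressed complex IV members the median was 8.48 on the log2(TPM + 1) scale, above the 8.13 of complex III. In replicate 1, complex III and ATP synthase lay closer together than the libraries did for complex III, and complex I and complex IV closer than the libraries did for complex IV, and in replicate 2 the same held for ATP synthase and complex IV. Each pair of neighbours thus lay within the spread between libraries in at least 1 of them.

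Complex I takes electrons from NADH. Its 7 catalytic core subunits had a median of 129 TPM and its 29 accessory subunits, which surround and stabilize the core, one of 105 TPM. The 8 assembly factors stood far lower, at a median of 13.5 TPM. Ndufs7, an iron-sulphur subunit near the ubiquinone site, was the highest core member at 277 and 299 TPM. Ndufv2, an iron-sulphur subunit of the NADH-oxidizing arm, was the lowest at 77.1 and 77.4 TPM, and here the libraries nearly coincided. The other 5 core subunits lay between 95.8 and 184 TPM in single libraries.

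Of the 29 accessory subunits, 13 exceeded 100 TPM in both libraries. Among them Ndufb8 was highest by mean level, at 377 and 310.5 TPM, but Ndufab1 and Ndufa7 passed it in replicate 2. Of the Ndufb8 TPM, 58.6% and 30.3% stood on Ndufb8-202, a retained-intron entry of 341 nt. Ndufa7 followed by mean level, at 333 and 338 TPM. Ndufab1, the mitochondrial acyl carrier protein, stood at 262 and 389.7 TPM. Of the Ndufab1 TPM, 93.9% and 81.6% stood on Ndufab1-208, a retained-intron entry of 443 nt. At the low end, Ndufs4, a small subunit whose loss in mice gives a model of Leigh syndrome, was read at 7.28 and 20.5 TPM, and the libraries lay 2.88-fold apart in scaled counts. Ndufs4 was picked out after its values were seen. The lowest expressed members were assembly factors: Ndufaf5 at 4.39 and 9.83 TPM, Ndufaf1 at 4.54 and 10.4 TPM, and Ndufaf6 at 7.62 and 9.49 TPM. For each of these 3, the higher value was in replicate 2.

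Ndufa4 and Ndufa4l2 are named after complex I, although the Ndufa4 protein is known as a subunit of complex IV; Ndufa4l2 is its paralogue and a known target of hypoxia-inducible factor. Ndufa4l2 was the highest of the 46 genes with a complex I stem, at 699 and 617 TPM. Ndufa4 was read at 97.8 and 226 TPM, so Ndufa4l2 exceeded it 7.15-fold in replicate 1 and 2.73-fold in replicate 2. The direction was the same in both libraries. On the log2(TPM + 1) scale the mean difference, Ndufa4 minus Ndufa4l2, was -2.13 ± 0.98 (SD, n = 2). Counts behind Ndufa4l2 were 15107 and 25337, all on 1 annotated transcript, with 0% of its 36-mers (stretches of 36 nt) found in another gene.

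Complex III hands electrons to cytochrome c, and all 8 of its genes with the Uqcr stem were expressed. The small subunits led: Uqcrq stood at 535 and 625 TPM, Uqcr10 at 367 and 413 TPM, and Uqcr11 at 319.5 and 384 TPM. Uqcrh, the hinge protein that sits by cytochrome c1, was read at 187 and 301 TPM. The 2 large core proteins, which hold the complex on the matrix side, differed in how well they repeated: Uqcrc1 gave 337 and 320.01 TPM, and Uqcrc2 gave 147 and 278 TPM. Uqcrfs1, the Rieske iron-sulphur protein and one of the electron carriers, was the lowest by mean level, at 36.7 and 124 TPM. Uqcrb, a small subunit that contributes to ubiquinone binding, was next at 47.4 and 156 TPM. For both, replicate 2 lay more than 3-fold above replicate 1 in scaled counts as well (3.45-fold and 3.29-fold).

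Complex IV reduces oxygen, and several of its nuclear subunits exist in a ubiquitous and a tissue-restricted form. The 10 ubiquitous subunits had a median of 516 TPM and included the highest members outside ATP synthase. Cox5b stood at 1165 and 1271 TPM, Cox7b at 1052 and 1234 TPM, Cox6a1 at 1079 and 1020.2 TPM, and Cox8a at 1052 and 858 TPM. Cox4i1, the largest nuclear subunit, was read at 419.5 and 652 TPM. These 5 held their rank above the other ubiquitous subunits by mean level. Cox7c (494 and 257 TPM) passed Cox4i1 in replicate 1. Of the Cox7c TPM, 97.85% and 91.91% stood on Cox7c-201, a processed transcript of 315 nt not annotated as coding.

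The heart, muscle, lung and testis forms were mostly silent. Cox4i2, the lung form, was read with 1 count in each library (0.06 and 0.03 TPM). Cox6a2, the heart and muscle form, had 6.94 counts in replicate 1 and 0 in replicate 2. Cox8b, also a muscle form, and Cox7b2 had 2 counts each in replicate 1 and 0 in replicate 2. Cox8c, a testis form, had 8 counts in replicate 1 and 0 in replicate 2. A count of 0 allows up to 3 counts, which corresponds to 0.110 TPM for Cox6a2 in replicate 2. The ubiquitous Cox6a1 was 2248-fold higher than Cox6a2 in replicate 1 and, against that limit, at least 9313-fold higher in replicate 2. Markers of other tissues were likewise read mainly in replicate 1: the 10 heart and skeletal muscle markers summed to 3.85 and 0.14 TPM, the 6 fibroblast markers to 1.34 and 0.04 TPM and the 7 testis germ cell markers to 0.66 and 0.22 TPM. Their part in the counts of the silent isoforms was not tested.

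There were 2 exceptions, Cox7a1 and Cox6b2. Cox7a1, the heart and muscle form of subunit VIIa, stood at 44.1 and 39.5 TPM, with 339 and 555 counts. Its ubiquitous partner Cox7a2 stood at 190.4 and 219 TPM, so the muscle form made up 18.8% and 15.3% of the pair. Cox6b2, known as the testis form of subunit VIb, was read at 12.4 and 19.5 TPM beside 404 and 590.5 TPM for Cox6b1, which is 2.98% and 3.19% of that pair. Markers of the same tissues were lower: the highest muscle marker was Myh1 at 1.23 and 0 TPM, and the highest testis germ cell marker was Ldhc at 0.41 and 0 TPM. Cox7a2l, related in sequence to Cox7a2 and known to join complexes III and IV into supercomplexes, was read at 88.8 and 135 TPM.

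**Figure D2:**
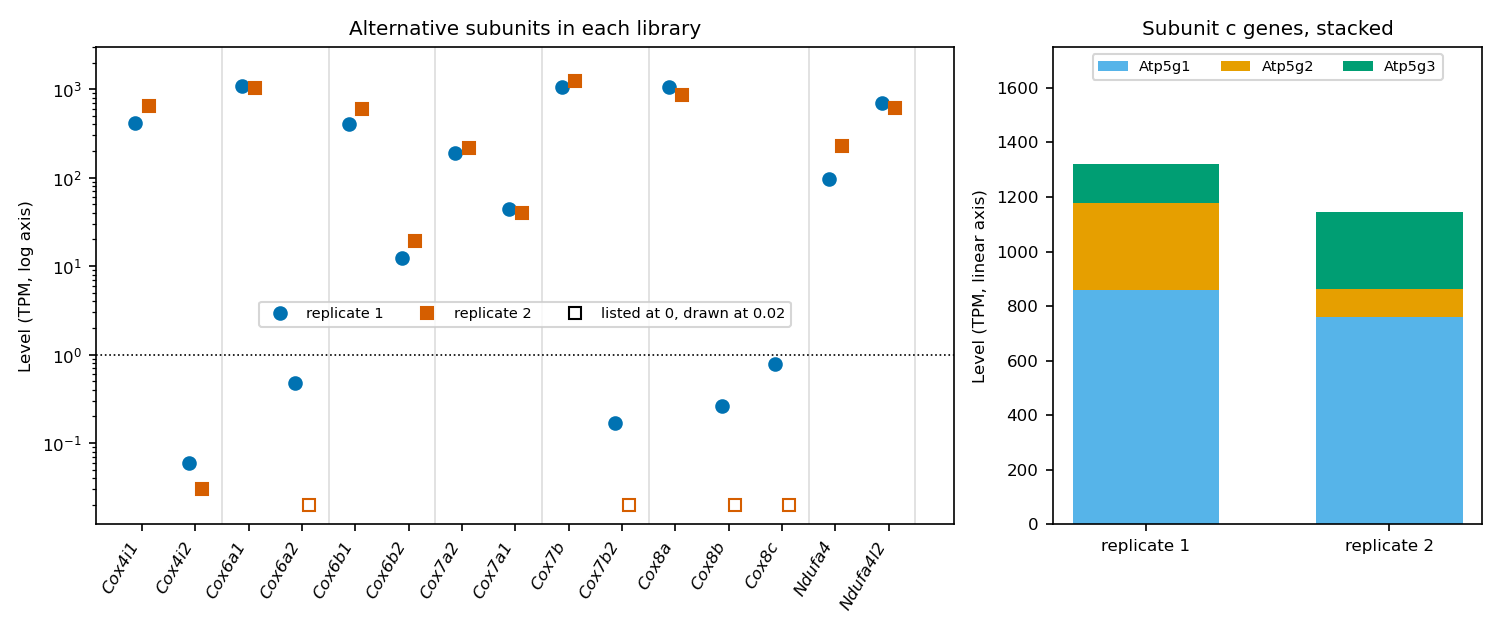
Left, level in TPM (log axis) of ubiquitous and alternative subunits in each library, circles for replicate 1 and squares for replicate 2, open where listed at 0; the dotted line marks 1 TPM. Right, the 3 subunit c genes stacked in TPM (linear axis), where the total was 1321 and 1147 TPM while Atp5g2 and Atp5g3 exchanged places; pseudogenes are not included, and with them Atp5g2 was above Atp5g3 in both libraries.

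All 17 ATP synthase genes were expressed, and the F1 head held the highest member of all. Atp5b, the catalytic beta subunit, stood at 2061 and 1313 TPM. Atp5a1, the alpha subunit that alternates with it in equal number, stood at 982 and 1268 TPM. The ratio of Atp5b to Atp5a1 was thus 2.10 in replicate 1 and 1.04 in replicate 2. In counts the ratio was 1.68 and 1.21. In scaled counts Atp5b differed between libraries by 0.04 on the log2 scale and Atp5a1 by 0.51. Of the Atp5b TPM, 40.8% was given to the coding transcript Atp5b-201 (1916 nt) in replicate 1 and 88.9% in replicate 2. In replicate 1 a further 23.6% stood on Atp5b-204 (399 nt) and 16.2% on Atp5b-206 (478 nt), short non-coding entries on which few counts make much TPM; in replicate 2 these held 1.67% and 0%. Atp5a1 was divided in a like way in both libraries. Of its TPM, 46.3% and 33.2% stood on Atp5a1-203, a retained-intron entry of 765 nt, and 37.2% and 42.9% on the coding Atp5a1-201 (2471 nt). The coding Atp5b-201 stood at 841 and 1167 TPM and Atp5a1-201 at 365 and 544 TPM, so the ratio of whole-gene TPM rests on the non-coding entries of both genes. Atp5d (delta) was read at 818 and 459.9 TPM and Atp5c1 (gamma, the rotating shaft) at 165 and 187 TPM. Atp5e (epsilon) stood at 123 and 122 TPM, the closest agreement in the F1 head. Atp5c1 is outside the naming rule and completes the F1 head.

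In the stalk, Atp5o (the protein that links F1 to the outer stalk) stood at 396 and 409 TPM. In the membrane, Atp5l stood at 313 and 456 TPM, Atp5j2 at 326 and 409 TPM and Atp5k at 183 and 213 TPM. These 3 and the stalk genes Atp5h (240.1 and 228 TPM) and Atp5f1 (129.6 and 215 TPM) fill the middle of the panel; all but Atp5f1 are outside the naming rule and serve as neighbours. Atp5mpl, a small membrane subunit, was far apart, at 40.9 and 206 TPM. The lowest member was Atp5s, the coupling factor B gene, at 2.63 and 6.16 TPM. The 3 subunit c genes summed to 1321 and 1147 TPM. Before pseudogenes were added, Atp5g1 held 65.0% and 66.4% of the sum. Atp5g2 held 24.2% in replicate 1 and 8.70% in replicate 2, and Atp5g3 held 10.7% and 24.9%. The ratio of Atp5g3 to Atp5g2 thus changed sign between libraries, from -1.17 to 1.51 on the log2(TPM + 1) scale. In scaled counts Atp5g3 was 2.03-fold higher in replicate 2, and Atp5g2 was 3.20-fold higher in replicate 1. Atp5g2 shares coding sequence with Gm10175, and the part of shared reads in the change of sign was not tested. With processed pseudogenes added to each gene, Atp5g2 stood at 721 and 821 TPM, above Atp5g3 in both libraries (5.08-fold and 2.88-fold). Its share of that sum was 40.0% and 42.9%. The share of Atp5g1 was then 52.1% and 42.1%, and in replicate 2 Atp5g2 passed Atp5g1 (821 beside 805 TPM). This sum was chosen after seeing the data.

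Genes that work beside the members were read from lists set apart from the symbol stems. Complex II, the other entry point for electrons and encoded wholly in the nucleus, had 4 of 4 genes expressed: Sdhb at 254 and 169.9 TPM, Sdhd at 151 and 248 TPM, Sdha at 125 and 169 TPM, and Sdhc at 150.2 and 138 TPM. Cyc1, cytochrome c1 of complex III, stood at 293 and 220.3 TPM. Cycs, the somatic cytochrome c, was read at 5.97 and 9.61 TPM, and the testis form Cyct at 0.28 and 0.04 TPM. The Cycs value carries the same limit as the members with pseudogenes: 28.4% of its 36-mers occur in other genes, and the near-copies Gm10053, Gm10108 and Gm13772 held more TPM than Cycs in both libraries. The mitochondrially encoded subunits had a median of 2018 TPM, with 12 of 13 at 1 TPM or more in both libraries. By mean level they ran from mt-Co3 at 147 and 104 TPM to mt-Atp8 at 14043 and 12748 TPM. In counts mt-Nd2 was highest, at 130483 and 270739 beside 55434 and 86703 for mt-Atp8. Shared sequence was not computed for these genes. The gene short of 1 TPM in both was mt-Nd3, at 0 and 492 TPM with 0 and 6560 counts. Both mt-Nd2 and mt-Nd3 are named outside the naming rule.

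Assembly factors of the other complexes had medians below those of the subunits. The median was 25.2 TPM for 23 complex IV factors, of which 22 were expressed. The highest was Cox17, a copper chaperone, at 92.8 and 188 TPM, and Pet117 had 0 counts in both libraries. For complex III factors the median was 30.4 TPM, from Uqcc2 at 61.3 and 121 TPM to Lyrm7 at 0.51 and 1.05 TPM. The 4 complex II factors ran from Sdhaf3 at 1.71 and 2.46 TPM to Sdhaf2 at 29.2 and 28.4 TPM. The 3 ATP synthase factors, with a median of 40.9 TPM, ran from Atpaf1 at 4.4 and 9.99 TPM to Atpaf2 at 57.6 and 41.3 TPM. Further complex I factors without the Nduf stem ran from Nubpl at 2.87 and 5.65 TPM to Ecsit at 92.0 and 46.7 TPM.

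Of 13 regulators of mitochondrial genes, 12 were expressed. Pprc1, a coactivator of the PGC-1 family, was the highest at 144 and 63.0 TPM, and Ppargc1a (PGC-1 alpha) was the lowest at 0.25 and 0 TPM. The third family member, Ppargc1b, stood at 19.8 and 12.9 TPM. Nrf1, which binds promoters of respiratory genes, was read at 72.4 and 37.5 TPM and Yy1 at 55.8 and 69.7 TPM. The GABP subunits Gabpa, Gabpb1 and Gabpb2 lay between 11.4 and 38.3 TPM in the 2 libraries. Tfam, which packages and transcribes mitochondrial DNA, was read at 16.7 and 56.1 TPM, and the mitochondrial RNA polymerase Polrmt at 87.4 and 55.6 TPM. Esrra stood at 18.3 and 20.3 TPM, Tfb1m at 6.86 and 9.84 TPM, and Tfb2m at 13.3 and 16.01 TPM.

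Several members shared part of their transcript sequence with a pseudogene, and counts were listed on both. Whether the counts on a copy come from its own transcripts was not tested. A processed pseudogene that holds at least 5% of the member's 36-mers was present for 19 members, and 12 of these had 50 or more counts on such copies over both libraries. The copies held more counts than the member in both libraries for 2 members and in at least 1 library for 6. For Ndufb4, whose coding sequence is repeated in full, 488 counts fell on the gene and 3100 on Ndufb4c in replicate 1, and 1054 and 3302 in replicate 2. For Ndufa12, 808 counts fell on the gene and 2263 on Gm15920 in replicate 1, and 1272 and 2274 in replicate 2. In TPM, Ndufb4c stood at 374 and 217, beside 22.6 and 26.4 for Ndufb4, the second lowest accessory subunit by mean level. Its copy was near the level of Ndufb8, the highest accessory subunit by mean level, in replicate 1 and below Ndufb8 in replicate 2. Whether these reads come from the gene or the copy cannot be told apart in the identical stretch; the deposited interval for Ndufb4, 19.3 to 24.4 TPM in replicate 1, has no stated level.

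The balance of counts between member and copy also differed between libraries. Atp5g2 had 5200 counts in replicate 1 and 3044 in replicate 2, while its copy Gm10175 had 5087 and 17492. The log2 ratio of scaled counts, replicate 2 over replicate 1, was -1.68 for Atp5g2 alone and 0.08 with its pseudogenes added. Cox7c, a ubiquitous complex IV subunit, had 3279 and 3246 counts and its copy Gm12338 had 1045 and 5095. Its log2 ratio went from -0.92 alone to 0.04 with its pseudogenes. Ndufs5 had 257 and 1315 counts and its copy BC002163 had 455 and 614, and its ratio went from 1.45 to 0.53. Cox7a2l had 2164 and 6260 counts beside 2300 and 3549 on Gm6969. Ndufs5, Cox7a2l, Ndufb4 and the pseudogenes are named for these counts, which were seen first. Cox5b has a near-copy annotated as protein-coding, Gm11273, with 2556 and 4941 counts beside 12210 and 21996.

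**Figure D3:**
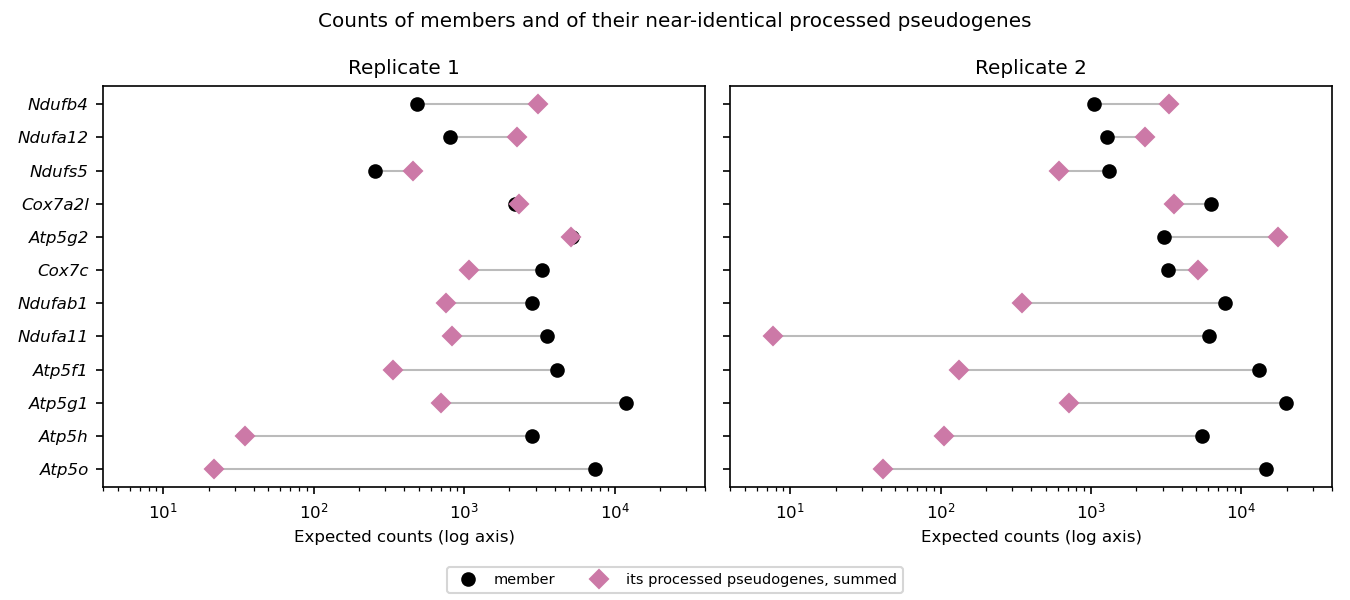
Expected counts (log axis) of 12 members, circles, and of their processed pseudogenes summed, diamonds, in each library. The diamond lies right of the circle for Ndufb4 and Ndufa12 in both panels, and for Atp5g2 and Cox7c in replicate 2 and Ndufs5 and Cox7a2l in replicate 1.

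The libraries were then set against each other, 1 against 1, with no p-value; a sign test over 2 libraries cannot go below 0.5. Counts were scaled by TMM, a trimmed-mean factor, and 84 members had at least 50 counts over both libraries. Of these, 53 (63.1%) lay within 1.5-fold, beside 49.5% of all genes with at least 50 counts and 53.1% of the protein-coding ones. At least 2-fold higher in replicate 2 were 18 members (21.4%), beside 16.3% of all 12414 genes with at least 50 counts and 14.1% of the protein-coding ones. At least 2-fold higher in replicate 1 was 1 member, Atp5g2 (1.19%), beside 13.2% of all genes and 11.3% of the protein-coding ones. The median log2 ratio was 0.24 over members and 0.02 over all genes tested. Other scalings move all genes alike and shifted both medians by up to 0.25. With the trend on transcript length removed, the medians were 0.01 and -0.05, and 44 of 84 members were above 0 beside 62 without that step.

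The 18 comprised 10 genes named for complex I, 3 for complex III, 1 for complex IV and 4 for ATP synthase. Furthest apart was Atp5mpl, with 315 and 2899 counts (4.90-fold). Next came Uqcrfs1 with 1139 and 7361 counts, Ndufc1, a small accessory subunit, with 109 and 699 counts (3.41-fold), and Uqcrb with 553 and 3412 counts. Cox6c followed with 1136 and 6251 counts (2.94-fold). The others were Atp5g3, Atp5j, Atp5s, Ndufa4, Ndufa5, Ndufs1, Ndufaf1, Ndufaf5, Uqcrc2, and, outside the naming rule, Ndufa1, Ndufb6, Ndufs4 and Ndufs5; they lay between 2.03-fold and 2.88-fold. In the other direction, after Atp5g2, came Cox7c at -0.92, Atp5d at -0.71, Ndufb9 at -0.35 and Cox8a at -0.30 on the log2 scale, none of which reached 2-fold.

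GC content moved with these ratios. Of the 18 members, 17 had under 50% GC in their annotated transcripts, with a median of 46.8%; the 65 members under 2-fold apart had a median of 52.4%, and 24 of them were under 50%. The 18 were also lower in level, with a median of 101 TPM beside 172 TPM. Over the 84 members the correlation of ratio and GC was Pearson r = -0.50 and Spearman rho = -0.53, given as a description because the members share 2 libraries. Over 12330 genes it was r = -0.19 and rho = -0.39. Among genes under 45% GC, 40.3% were at least 2-fold higher in replicate 2, and 6 of 15 members were. From 45 to 50% GC it was 13.3% of genes and 11 of 26 members, from 50 to 55% 6.73% of genes and 1 of 24 members, and above that 7.36% of genes and 0 of 19 members. With the lowess trend on GC removed, 11 members (13.1%, beside 9.97% of the genes with a GC value) were higher in replicate 2 and 2 (2.38%, beside 12.8%) in replicate 1. The member median went the other way, from 0.24 to 0.39, beside -0.02 for all genes. Of the 18, 10 kept a 2-fold ratio, among them Atp5mpl, Uqcrfs1, Ndufc1 and Cox6c, and the log2 ratio of Uqcrb was 0.74. The member that joined Atp5g2 in the other direction was Cox7c at -1.44. The reads implied by the tables are 36 nt in replicate 1 and 55 nt in replicate 2, and the part of read length and GC content in the ratios was not tested.

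**Figure D4:**
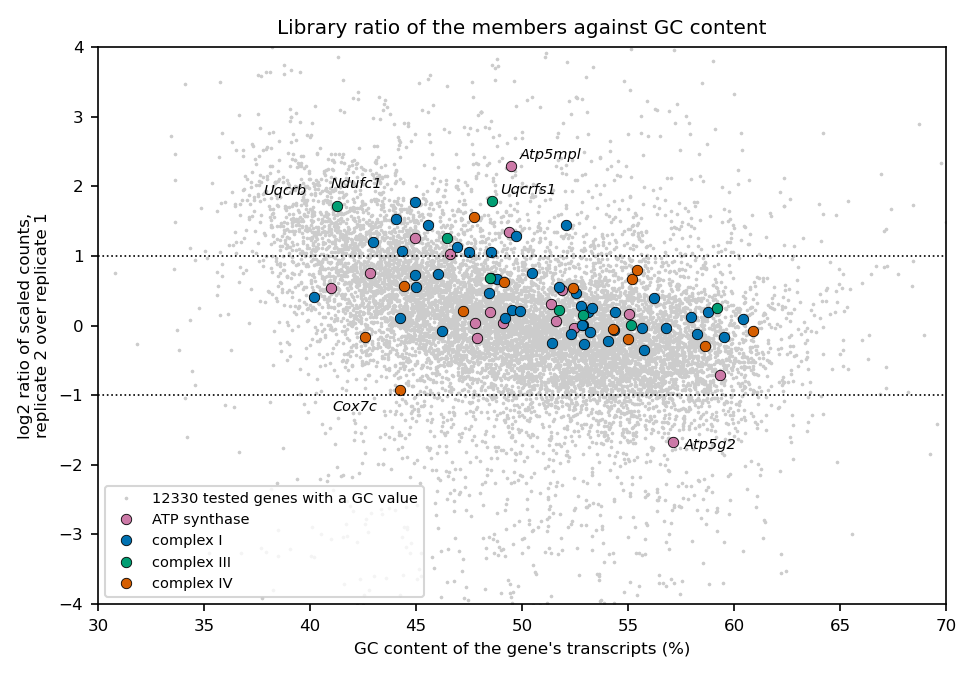
Log2 ratio of TMM-scaled counts, replicate 2 over replicate 1, against GC content in percent; coloured points are the 84 members by complex, grey points all 12330 genes tested that have a GC value, dotted lines 2-fold. Genes beyond 4 on the ratio axis or outside 30 to 70% GC are not drawn; 17 of the 18 members above the upper line have under 50% GC, and Atp5g2 lies alone below the lower line.

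The transcript tables divide each gene's TPM among its annotated transcripts. Of the 84 expressed members, 25 have 1 transcript in the tables and 59 have more. The same transcript led in both libraries for 44 of the 59 (74.6%), beside 69.3% of 6807 protein-coding genes with more than 1 transcript. With the leader taken by expected counts instead of TPM share, it was the same for 49 of the 59, beside 5304 of the 6807. Of the same 59, the leader by mean share held at least 90% in both libraries for 18 (30.5%, beside 14.3%) and was of a type other than protein-coding for 10 (16.9%, beside 17.4%).

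Large differences between libraries in the assigned shares were seen in complex I. The gene levels moved less, with Ndufs7 at 277 and 299 TPM and Ndufa12 at 64.75 and 72.47 TPM. Whether the reads, 36 and 55 nt as implied, can tell these transcripts apart was not tested. Ndufs7 gave 87.6% of its TPM to Ndufs7-206, a non-coding processed transcript, in replicate 1, and 94.6% to the coding Ndufs7-201 in replicate 2. Ndufa12 gave 99.4% to the coding Ndufa12-204 in replicate 1 and 94.9% to the retained-intron transcript Ndufa12-202 in replicate 2. Ndufa10, an accessory subunit, gave 56.8% to Ndufa10-207, a nonsense-mediated decay transcript, in replicate 1 and 10.98% in replicate 2. The leader by TPM share also differed for Ndufb8, Ndufs3, Ndufs1, Ndufb5, Ndufv2 and Ndufaf1. By counts, each of these except Ndufb5 had the same leader in both libraries.

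Outside complex I, the leader by TPM share differed for Atp5a1, Atp5d, Atp5j, Uqcrc2, Cox5b and Cox6b2. By counts, Atp5a1, Atp5j and Uqcrc2 had the same leader in both libraries. Atp5d moved from 79.4% on Atp5d-202 to 59.7% on Atp5d-201, both coding. Cox7b shows how much a short entry weighs in TPM: the 180 nt Cox7b-202, a processed transcript, held 64.3% and 70.2% of TPM from 2290 of 8632 and 4953 of 14450 counts. The level of Cox7b given above rests on it. Of the Cox5b TPM, 53.8% and 28.8% stood on Cox5b-205, a processed transcript of 362 nt. The further members led by a transcript of another type in both libraries were Atp5f1, Ndufab1, Ndufv1, Ndufa5 and Cox7c.

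**Figure D5:**
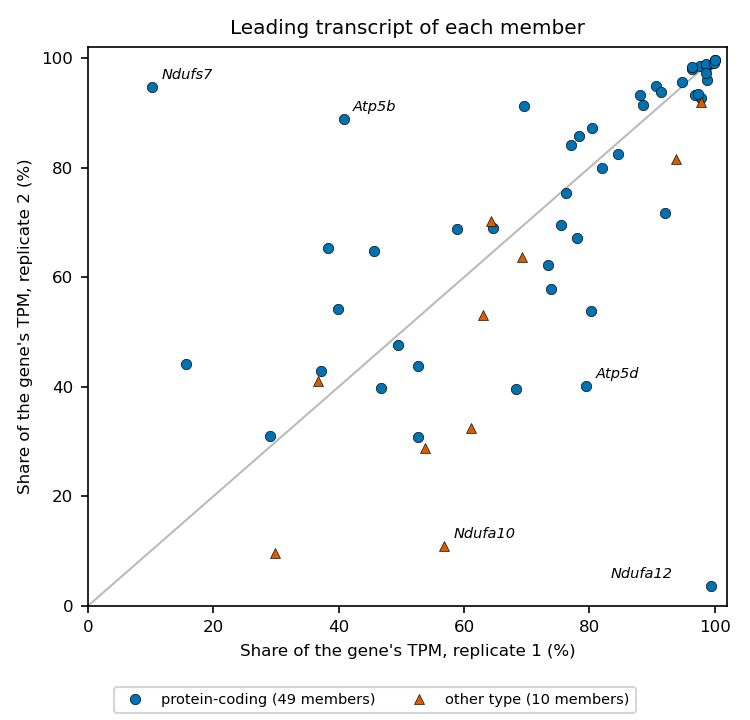
Share of the gene's TPM in percent given to the leading transcript (by mean share) in replicate 1, horizontal, and replicate 2, vertical, for the 59 members with more than 1 transcript; circles are protein-coding leaders and triangles leaders of another type. Ndufs7 and Ndufa12 lie in opposite corners, far from the diagonal of equal shares.

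Promoters were searched for motifs of regulators known to act on respiratory genes. RefSeq promoters on GRCm38.p6, from 250 bases before to 50 after each start, matched 73 of the 89 members by Ensembl identifier, symbol or RefSeq synonym. The NRF1 core GCATGCGC, searched on both strands, was present for 11 of 73 members (15.1%), beside 7.10% of 7425 expressed protein-coding genes and 3.05% of all 27025 genes with a promoter. The YY1 motif AAGATGGCG was present for 8 members (10.96%), beside 4.53% of expressed genes. The ETS motif CCGGAAGT, which GABP binds, was present for 5 (6.85%), beside 11.4% of expressed genes, and the E-box CACGTG for 6 (8.22%), beside 12.6%. A further motif, the core of hypoxia response elements (ACGTG), is contained in the E-box; it was present for 18 members (24.7%), beside 31.3%, and Ndufa4l2 was not among the 73 members matched. Shown are the 100 bases just upstream of the annotated gene for the highest complex I and complex III members with an NRF1 or ETS match there, Ndufa6 (chr15:82354323-82354422, minus strand) and Uqcr11 (chr10:80406831-80406930, minus strand), 5′ to 3′ with the match in capitals.
Ndufa6: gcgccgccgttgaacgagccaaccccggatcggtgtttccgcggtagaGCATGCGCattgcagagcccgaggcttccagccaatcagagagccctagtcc
Uqcr11: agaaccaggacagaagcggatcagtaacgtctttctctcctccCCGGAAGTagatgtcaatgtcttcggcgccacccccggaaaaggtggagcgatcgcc
Ndufa6, an accessory subunit shown here for its promoter, was read at 129 and 151 TPM. A match describes letters in the window and is not a measured binding site.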

How the data were processed

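Poly(A) RNA of G1E cells was sequenced single end, per the labels, in 2 libraries of 1 group; the tables were made per library and not pooled. The assembly is mm10 and the annotation release M4, per the deposited notes; no source used here gives the aligner, the quantifier or the strand setting. Expected counts were deposited without normalization. TPM and FPKM values were deposited by the authors as counts over effective length, scaled within a library. The signal columns deposited beside them hold a posterior mean TPM with interval bounds of unstated level. The percent column of the transcript tables gives, per the file headers, a transcript's share of its gene's TPM.

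Symbols, types and transcripts came from GENCODE M21 (42462 of 43346 identifiers matched, without version), and promoters from RefSeq on GRCm38.p6. Entries naming no gene (0.0363% and 0.00942% of counts) were left out. Expressed means at least 1 TPM in both libraries. Counts were rounded, 0.5 was added, and each was divided by its library's total over kept genes times a TMM factor (0.982 and 1.02). The factors came from edgeR 4.0.16 in R 4.3.3 after its default filter. Genes with at least 50 counts over both libraries were called apart at 2-fold. DESeq2 1.42.0 gave alternative size factors. Shared sequence is the percent of a gene's 36-mers found in another gene. The lowess span was 0.3. The ratio step was tested on simulated data, where 0.5 was added after scaling. Sequences were aligned with Biopython 1.88, the trend was taken with statsmodels 0.14.6, and tables were handled with pandas 2.3.3 in Python 3.11.15. Count limits at 0 cover counting error only.

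The members and gene lists were chosen with earlier results of these data known. The text names members under 1 TPM, the 5 highest and 3 lowest expressed of each complex, members of isoform pairs, the 5 furthest apart in each direction, members whose leading transcript is non-coding or differs, the highest and lowest of each context list, and complex II, cytochromes c and regulators. Other names are said to be outside this rule. Coa1 was not matched and was not analysed here.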

Additional observations from a re-analysis of the deposited data

How the results depend on the processing

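Of 71 alternatives tried for the 7 main results, 51 kept the value within its limits and 20 moved it. The count of 84 expressed members was 81 at 5 TPM and stayed at 84 under the other alternatives run. Median levels, as log2(TPM + 1), were 6.63 for complex I, 8.13 for complex III, 7.17 for complex IV and 7.66 for ATP synthase. With FPKM they were 6.25 for complex I, 7.75 for complex III and 7.28 for ATP synthase. With TPM rescaled over protein-coding genes they were 8.46 for complex III and 7.99 for ATP synthase, and with counts over the mean length of both libraries (added after seeing the data) 8.45 and 7.98. The ATP synthase median was 7.60 with the posterior mean TPM and 7.84 to 7.91 with either library left out. For complex IV it was 8.48 over expressed members and 4.05 over members with under 10% shared 36-mers. Members 2-fold higher in replicate 2 went from 18 to 11 with the GC trend removed and to 28 at 1.5-fold, and lay between 12 and 22 under the other alternatives. Those higher in replicate 1 went from 1 to 2 with the GC or the length trend removed, 3 at 1.5-fold, 5 with no count filter, and 0 among members with under 10% shared 36-mers or with pseudogenes summed (added after seeing the data). Over 12 gene pairs, 61 settings gave 49 values within the spread, 10 beyond it and 2 reversals, both of Atp5g3 over Atp5g2 (0.17), at -1.17 without replicate 2 and at -1.93 with pseudogenes summed (added after seeing the data). No library can be left out of a ratio of 1 against 1. No paired analysis was possible because there is 1 group. Low counts limit the silent isoforms, and sequence shared with pseudogenes limits Ndufb4, Ndufa12, Atp5g2, Cox7c, Ndufs5 and Cox7a2l at any depth. Shared sequence was not confined to these. At least 10% of 36-mers were found in another gene for 31 of the 89 members. They include 6 of the 18 members higher in replicate 2 and 24 of the 65 under 2-fold apart.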
